A study of Homo sapiens with 8 samples.

Results

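The genes described here encode parts of the actin cytoskeleton: the cytoplasmic actins ACTB and ACTG1, the alpha-actinins ACTN1, ACTN2 and ACTN4, the tropomyosins TPM1 and TPM4, filamin A (FLNA) and the regulatory myosin light chain MYL9. They were taken by symbol from the deposited tables, 9 of 56638 entries, and were chosen with their values in these tables known. Their values are therefore a description and carry no test. The samples were A375 cells, a human malignant melanoma line, grown with 10% serum and transfected 24 h after seeding with the plasmid pcDNA3.1(-). The plasmid was empty in the vector group. In the other groups it expressed full-length SLNCR1, a long noncoding RNA (SLNCR1), the conserved part of that RNA alone (the conserved region), or SLNCR1 lacking that part (delta-conserved). RNA was taken 48 h after transfection, selected for poly(A) and sequenced, with 2 libraries in each of the 4 groups. All groups, vector included, had gone through the same lipid transfection, and all are transient transfections of 1 cell line. Nothing in the labels ties the 2 libraries of a group to separate cultures, so their spread may be technical.

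Actin monomers assemble into filaments, and in cells outside muscle the beta and gamma cytoplasmic actins make up nearly all of them. Alpha-actinins are antiparallel dimers that cross-link filaments into bundles and tie them to adhesions. ACTN1 and ACTN4 are the forms found in most cells, while ACTN2 is the form of the Z-disc of striated muscle. Tropomyosins wrap along filaments and set which proteins may bind them, filamin A joins crossing filaments into networks, and phosphorylation of the regulatory light chain turns on non-muscle and smooth muscle myosin II. Many of these genes are known targets of serum response factor (SRF) and its actin-sensing coactivators of the MRTF family, which act through the CArG box, a sequence of CC, 6 bases of A or T, and GG.

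The data could be read per library because each deposited group mean is the average of 2 whole read numbers divided by 2 size factors, from which the reads of each library were solved. The deeper library of a pair is named a here and the shallower one b. In reads assigned to genes, the vector libraries held 12015394 and 11321294, the conserved-region libraries 11340614 and 10279988, the SLNCR1 libraries 10097194 and 9090649, and the delta-conserved libraries 9187241 and 8222868. On the first principal component (41.2% of variance) the vector and conserved-region libraries scored -20.3 to -14.1. The SLNCR1 and delta-conserved libraries scored 14.3 to 27.0. On the second (16.0% of variance) SLNCR1 library b lay at 24.0 and delta-conserved library b at -18.3, where the rest ranged from -9.3 to 5.0. The transfected RNA has no entry of that name. The overlapping gene LINC00511 had 624 ± 4.68 normalized counts in vector, 1096 ± 62.9 with the conserved region, 875 ± 15.4 with SLNCR1 and 1012 ± 201 with delta-conserved (SD, n = 2). It was counted with the empty plasmid too, and whether reads of the constructs were assigned to it was not tested. These counts therefore do not measure how strongly a construct was expressed.

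Of the melanocyte and melanoma markers, 6 of 8 were measured with a mean of at least 10 normalized counts, and their summed level was 4186 to 4802 over the 8 libraries. TYR and DCT were the markers under that mean. Of the smooth and striated muscle markers, 2 of 7 reached it, ACTA2 and MYH11, with summed muscle marker levels of 224 to 238 in vector, 220 to 231 with the conserved region, 167 to 186 with SLNCR1 and 178 to 201 with delta-conserved. The 6 fibroblast markers summed to 669 to 868, 2 of 4 keratinocyte markers were measured, and the endothelial and leukocyte lists had 1 gene each above that mean, with PECAM1 at 0 reads and PTPRC and CD3E at no more than 2 reads in a library. COL3A1, a fibroblast collagen picked after its values were seen, had 60 and 2 reads in the conserved-region libraries. It had 46 and 36 in the delta-conserved libraries, against 4 or 5 in the other libraries. COL1A1, COL1A2 and DCN also had higher group means with delta-conserved than in vector, at 255 against 191, 28.8 against 10.7 and 14.7 against 11.4. PDGFRB and LUM had lower ones, at 441 against 497 and 36.8 against 47.8. The part of other cells in the results below was not tested.

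Promoter sequences were searched for the CArG box to show which members carry one. RefSeq's promoter table (build GRCh38.p14) held 13 windows for 7 of the 9 genes, each from 250 bases before a transcription start to 50 bases after it; ACTB and MYL9 were not searched. A CArG box on either strand was found in 4 windows, of ACTG1, ACTN1, TPM4 and FLNA, while 1.29% of all 35116 windows in the table hold one. In the ACTG1 and FLNA windows the box begins 94 bases before the start, in the TPM4 window 173 bases before it, and in 1 of the 4 ACTN1 windows 171 bases before it. The ACTN2 window has no CArG box and 2 copies of the palindrome CACGTG, 127 and 50 bases before the start. ACTG1 has 1 copy of it. That motif was searched for after the ACTN2 sequence had been seen, and 7.26% of all windows hold at least 1 copy and 0.664% at least 2. The 250 bases before the start follow for ACTN2 (chr1:236686249-236686498, plus strand), the member with the largest differences, and for 3 members with a box, ACTG1 (chr17:81512800-81513049, minus strand), FLNA (chrX:154374635-154374884, minus strand) and TPM4 (chr19:16067288-16067537, plus strand). They read 5′ to 3′ on the gene's strand, with CArG boxes and CACGTG in capitals.
ACTN2: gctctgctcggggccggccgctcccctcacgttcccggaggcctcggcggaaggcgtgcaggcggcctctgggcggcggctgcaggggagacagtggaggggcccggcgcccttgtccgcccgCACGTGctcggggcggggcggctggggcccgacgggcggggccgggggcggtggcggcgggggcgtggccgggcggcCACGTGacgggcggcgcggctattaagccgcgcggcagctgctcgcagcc
ACTG1: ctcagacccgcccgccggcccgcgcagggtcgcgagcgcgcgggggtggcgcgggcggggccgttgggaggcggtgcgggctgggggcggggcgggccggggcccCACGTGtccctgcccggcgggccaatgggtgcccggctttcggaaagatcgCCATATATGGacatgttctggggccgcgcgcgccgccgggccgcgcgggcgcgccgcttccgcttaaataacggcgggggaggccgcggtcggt
FLNA: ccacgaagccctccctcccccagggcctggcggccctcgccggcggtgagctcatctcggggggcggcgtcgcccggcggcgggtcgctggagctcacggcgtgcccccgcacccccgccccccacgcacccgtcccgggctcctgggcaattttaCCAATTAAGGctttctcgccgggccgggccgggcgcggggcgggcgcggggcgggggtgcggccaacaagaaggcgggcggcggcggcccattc
TPM4: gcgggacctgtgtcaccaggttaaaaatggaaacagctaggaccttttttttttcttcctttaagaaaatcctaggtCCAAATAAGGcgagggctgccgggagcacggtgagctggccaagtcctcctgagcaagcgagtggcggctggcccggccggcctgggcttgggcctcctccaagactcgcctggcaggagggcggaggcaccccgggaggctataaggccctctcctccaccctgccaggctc
A match to these letters is a description of the sequence. It does not show that a factor binds there. Whether a box bears on the levels given further on was not tested.

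ACTN2 was the member with the largest differences. Its normalized count, the reads of a library divided by that library's size factor over all 8 libraries, was 164 and 153 in the vector libraries, 189.7 and 165 with the conserved region, 40.3 and 36.4 with SLNCR1, and 53.4 and 37.9 with delta-conserved. The vector and conserved-region libraries were all high and the libraries of the constructs with the rest of SLNCR1 were all low, with no overlap. In bulk RNA, fewer cells with ACTN2 RNA and less of it per cell cannot be told apart. These levels rest on 165 to 213 reads per library in the high groups and on 30 to 48 in the low groups.

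The group means of ACTN2 were 158 ± 7.62 in vector, 177 ± 17.5 with the conserved region, 38.3 ± 2.71 with SLNCR1 and 45.6 ± 11 with delta-conserved (SD, n = 2). The vector mean was 4.13 times that with SLNCR1 and 3.47 times that with delta-conserved, and the conserved-region mean was 4.63 and 3.89 times these. On the log2 scale, with 1 added to each normalized count, the difference from vector was -2.02 ± 0.18 (SE) with SLNCR1, -1.79 ± 0.18 with delta-conserved and 0.16 ± 0.18 with the conserved region. SLNCR1 and delta-conserved differed by -0.23 ± 0.18, and their libraries overlapped. Leaving out any 1 library kept the difference from vector between -2.09 and -1.95 with SLNCR1, at -1.95 without its library b, and between -2.03 and -1.55 with delta-conserved. The authors' deposited tables give log2 fold changes of -2.04, -1.80 and 0.15 for SLNCR1, delta-conserved and the conserved region.

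The SLNCR1 and delta-conserved libraries are also the 4 with the fewest reads. Across that line, SLNCR1 library a and conserved-region library b were close in depth, at 10097194 and 10279988 reads, and had 40 and 165 reads of ACTN2. The same 2 libraries had 3049 and 3017 reads of ACTB. None of the 50-base stretches of the principal ACTN2 transcript of GENCODE release 29 occurs in any transcript of another gene. It thus shares no such stretch with its close relatives ACTN1 and ACTN4. No gene of that annotation overlaps ACTN2 on the opposite strand.

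ACTN2 was also taken as a share of ACTN1, ACTN2, ACTN3 and ACTN4 reads within a library, which needs no scaling between libraries. The share is not free of depth, as these reads, nearly all of ACTN1 and ACTN4, changed less than the totals. They were 9677 in vector library a, the deepest, and 8252 in delta-conserved library b, the shallowest. The share was lower in library b than in library a of each group. In vector ACTN2 made up 2.09% (exact 95% binomial interval 1.81 to 2.39%) and 1.75% (1.5 to 2.03%). With the conserved region it was 2.21% (1.93 to 2.53%) and 1.80% (1.53 to 2.09%). The share was 0.432% (0.309 to 0.588%) and 0.378% (0.260 to 0.530%) with SLNCR1, and 0.547% (0.403 to 0.724%) and 0.364% (0.245 to 0.519%) with delta-conserved. No interval of the first 2 groups overlapped one of the other 2. The intervals cover counting error only, as reads are not independent molecules after amplification. ACTN2 was thus a minor alpha-actinin in every library, the muscle form standing beside the far more abundant ACTN1 and ACTN4.

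**Figure D1:**
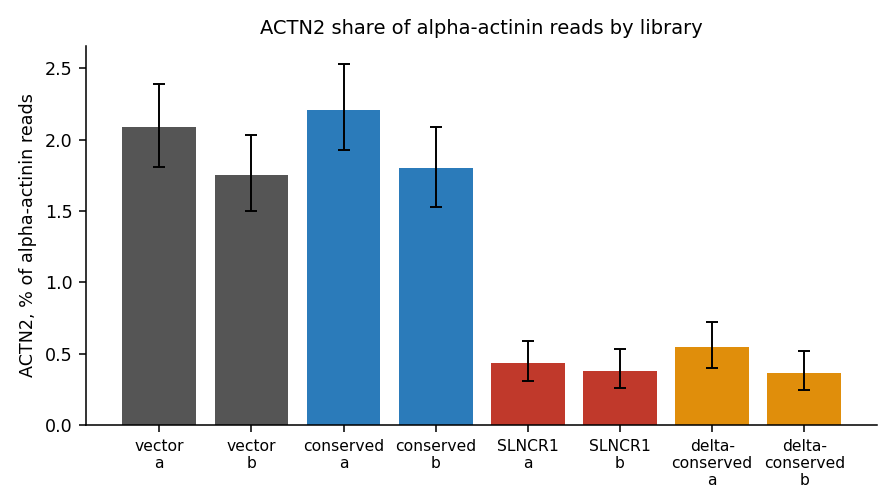
ACTN2 reads as a percentage of ACTN1, ACTN2, ACTN3 and ACTN4 reads in each of the 8 libraries. Bars start at 0 and the lines are exact 95% binomial intervals for counting error. The 4 vector and conserved-region libraries lie between 1.75 and 2.21%, those of SLNCR1 and delta-conserved between 0.364 and 0.547%.

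ACTN1, which bundles stress fibres and sits at focal adhesions, had 3127 and 3449 normalized counts in vector, 3394 and 3590 with the conserved region, 3678 and 3700 with SLNCR1 and 3718 and 3882 with delta-conserved. Conserved-region library a lay within the vector range, and the SLNCR1 and delta-conserved libraries lay above all 4 others. ACTN4, the alpha-actinin of motile edges and invasive cells, had 4544 and 5136, then 4983 and 5430, then 5600 and 5904, and then 5996 and 6495 normalized counts in the same order of groups. Its vector and conserved-region libraries overlapped, and the SLNCR1 libraries lay above both of these and below delta-conserved. The log2 differences from vector were small: 0.17 ± 0.070 (SE) for ACTN1 and 0.25 ± 0.080 for ACTN4 with SLNCR1, and 0.21 ± 0.070 and 0.37 ± 0.080 with delta-conserved. The other 2 alpha-actinins therefore stood on the opposite side of vector from ACTN2 with the same constructs. Of the 50-base stretches, 0.91% of those of ACTN1 recur in ACTN4, and 2.58% of those of ACTN4 recur in 2 other genes.

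ACTB, the beta cytoplasmic actin and a common reference gene, had 2509 and 2770 normalized counts in vector, 2724 and 3017 with the conserved region, 3069 and 3357 with SLNCR1, and 3332 and 3716 with delta-conserved. The groups followed one another in that order, with overlap between vector and the conserved region and between SLNCR1 and delta-conserved. Its means were 2639 ± 185, 2870 ± 207, 3213 ± 204 and 3524 ± 272 (SD, n = 2). The log2 difference from vector was 0.28 ± 0.080 (SE) with SLNCR1, 0.42 ± 0.080 with delta-conserved and 0.12 ± 0.080 with the conserved region.

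ACTG1, the gamma cytoplasmic actin, kept close to ACTB. It had 2636 and 2927 normalized counts in vector, 2896 and 3193 with the conserved region, 3274 and 3566 with SLNCR1, and 3587 and 3881 with delta-conserved. Only vector and the conserved region overlapped among neighbours in that order. Its log2 difference from vector was 0.30 ± 0.078 (SE) with SLNCR1, 0.43 ± 0.078 with delta-conserved and 0.13 ± 0.078 with the conserved region. The share of ACTB in the reads of the 2 cytoplasmic actins was between 48.2 and 48.9% in all 8 libraries, with exact 95% binomial intervals that all overlapped. Reads of ACTB can also be assigned elsewhere, since 10.3% of its 50-base stretches recur in 17 other genes, most often in the pseudogene ACTBP2, while 3.58% of those of ACTG1 recur in 9.

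TPM4, a short tropomyosin of non-muscle cells, had 2274 and 2431 normalized counts in vector, 2465 and 2631 with the conserved region, 2740 and 2887 with SLNCR1, and 2795 and 3014 with delta-conserved. The vector libraries were the lowest and overlapped with none, and SLNCR1 and delta-conserved overlapped. The log2 difference from vector was 0.26 ± 0.070 (SE) with SLNCR1 and 0.30 ± 0.070 with delta-conserved. TPM4 is the least certain of the members in its counting, as 22.9% of its 50-base stretches recur in other genes.

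TPM1, the gene of several muscle and stress-fibre tropomyosins, did not follow TPM4. Its normalized counts were 1096 and 1113 in vector, 1155 and 1199 with the conserved region, 1160 and 1079 with SLNCR1, and 1067 and 1095 with delta-conserved. The range over all 8 libraries was 1.12-fold, and the SLNCR1 libraries spanned the vector level. The log2 difference from vector was 0.019 ± 0.068 (SE) with SLNCR1, -0.031 ± 0.068 with delta-conserved and 0.092 ± 0.068 with the conserved region. As a share of TPM1 and TPM4 reads, TPM1 was 32.5 and 31.4% in vector, 31.9 and 31.3% with the conserved region, 29.7 and 27.2% with SLNCR1 and 27.6 and 26.6% with delta-conserved. The order of these shares over the 8 libraries was the order of their depth.

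FLNA, the longest transcript of the 9, had the highest normalized counts, at 9500 and 10820 in vector, 11700 and 11763 with SLNCR1, and 12252 and 12946 with delta-conserved. With the conserved region its mean was 10964, but its split into 2 libraries had 5 solutions, with 11690 to 12390 reads in library a and 10892 to 11516 in library b. The split of 12390 and 10892 was used in the fit. The groups SLNCR1 and delta-conserved lay above vector with no overlap, and the log2 difference from vector was 0.21 ± 0.082 (SE) and 0.31 ± 0.082, and 0.11 ± 0.082 with the conserved region.

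MYL9, the light chain of smooth muscle and non-muscle myosin II, was the other weakly expressed member beside ACTN2. It had 107 and 88.8 normalized counts in vector, 102 and 96.0 with the conserved region, 93.6 and 111 with SLNCR1, and 103 and 107 with delta-conserved. The vector range overlapped that of every other group. Its log2 differences from vector were 0.067 ± 0.16 (SE), 0.019 ± 0.16 and 0.11 ± 0.16 with SLNCR1, the conserved region and delta-conserved. These rest on 85 to 132 reads per library.

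**Figure D2:**
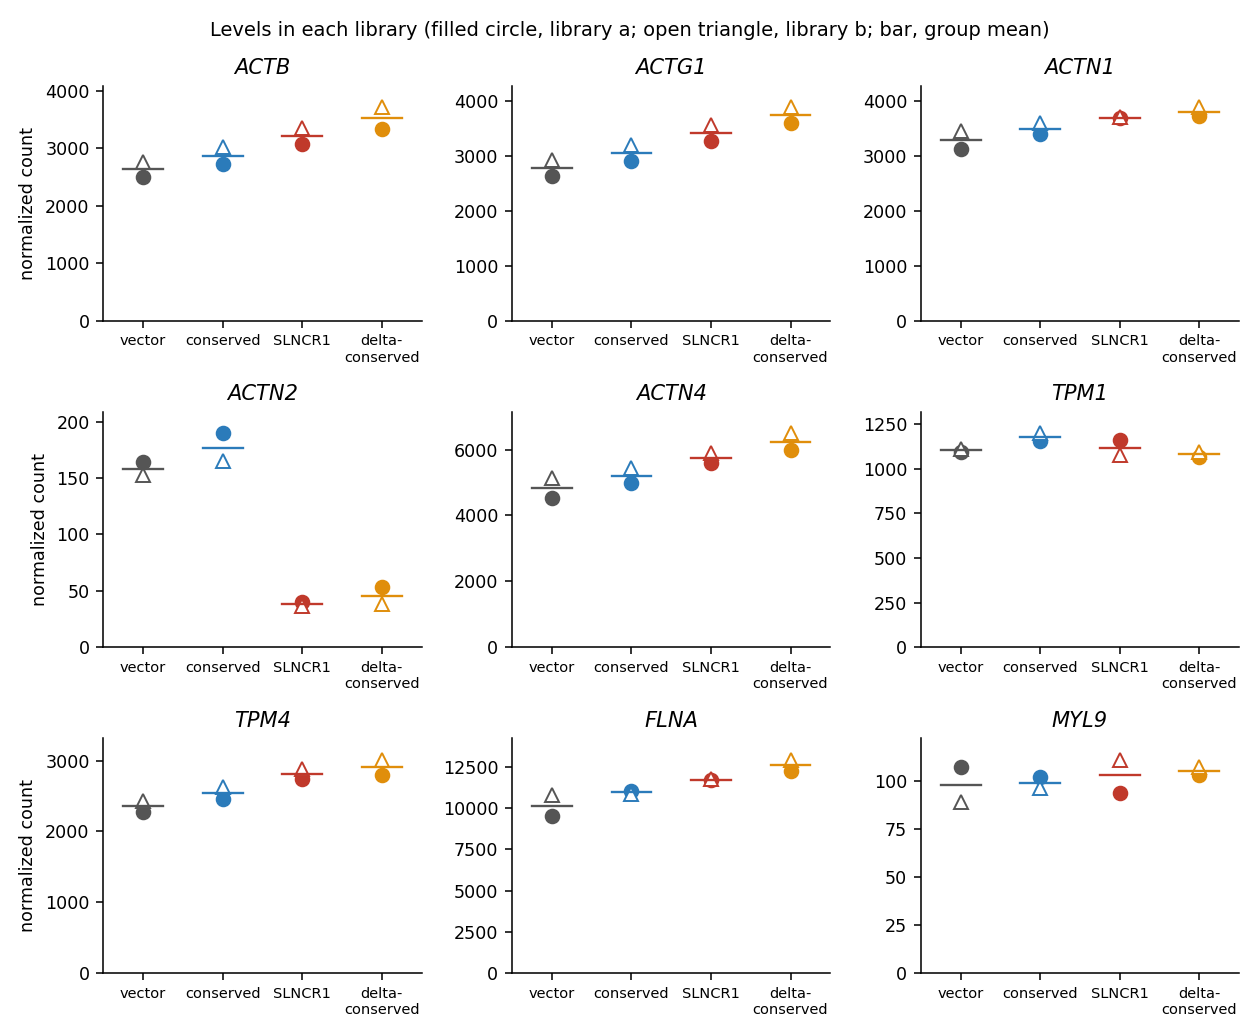
Normalized counts of the 9 genes in each library, 1 panel per gene with its own axis from 0; circles are library a, triangles library b and bars the mean of the 2 libraries. ACTN2 stands between 36.4 and 53.4 with SLNCR1 and delta-conserved, ACTB, ACTG1, ACTN4, TPM4, ACTN1 and FLNA step up from vector to delta-conserved, and TPM1 and MYL9 do not; the split of FLNA between the conserved-region libraries is 1 of 5.

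Per kilobase of transcript, the scale on which genes can be compared, the mean levels in vector were 1374 normalized counts for ACTB, 1233 for ACTG1, 1193 for FLNA, 1053 for TPM1, 975 for ACTN4, 927 for TPM4 and 870 for ACTN1. MYL9 and ACTN2 stood far under these, at 34.7 and 32.5. With SLNCR1 the level per kilobase of ACTN2 was 7.88 and that of MYL9 36.3. The lengths are those of 1 principal transcript per gene, and TPM1 in particular has many transcripts of other lengths.

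By limma on log2 normalized counts with Benjamini-Hochberg adjustment over 16073 genes, 4 members (ACTB, ACTG1, ACTN4 and TPM4) were called higher with SLNCR1 than with vector and ACTN2 lower, where 3.93% and 7.4% of all genes were called higher and lower. With delta-conserved 5 members were called higher (FLNA added) and ACTN2 lower, beside 5.18% and 5.24% of all genes. With the conserved region no member was called, beside 0.00622% of all genes. In the authors' deposited tables, with SLNCR1 ACTN2 was called lower (0.844% of genes) and no member higher (0.0388%), ACTB, ACTG1, ACTN4 and TPM4 were called higher (1.11%) and ACTN2 lower (1.14%) with delta-conserved, and none with the conserved region (0.0175%). Since the members were chosen from these contrasts, nothing is read from the counts. The 3 contrasts share the vector libraries.

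Between constructs, SLNCR1 against the conserved region had ACTN2 called lower and no member higher (9.46% and 2.05% of all genes), and the conserved region against delta-conserved had ACTN2 called higher (5.79%) and ACTB and ACTG1 lower (1.11%). SLNCR1 against delta-conserved had no member called, and 0.0% of all genes. There the member differences without ACTN2 ran from -0.13 to 0.05 on the log2 scale. In groups that do not overlap, 6 members lay higher and 1 lower with SLNCR1 than with vector, where 27.2% and 25.4% of all genes did so, and 6 and 2 with delta-conserved, beside 27.7% and 26.0%. With the conserved region 4 lay higher and 0 lower, beside 25% and 16.7%, FLNA among the 4 by the split used.

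The median log2 difference of the 9 members from vector was 0.21 with SLNCR1, 0.30 with delta-conserved and 0.11 with the conserved region. Over all 16073 genes the medians were -0.00041, -0.0028 and 0.020. Over the 3419 genes with a mean of at least 1000 normalized counts they were 0.084, 0.098 and 0.064. The higher members are among the most densely read genes of these libraries, and the level of such genes moved with depth, as follows.

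Before normalization the reads of the dense members other than TPM1 differed less between libraries than the totals did. ACTB had 3098 and 3118 reads in vector, 3058 and 3017 with the conserved region, 3049 and 3042 with SLNCR1, and 2995 and 2943 with delta-conserved. That is a range of 1.06-fold over libraries whose totals ranged 1.46-fold. The ranges were 1.07-fold for ACTG1, 1.12-fold for ACTN4, 1.18-fold for TPM4, 1.21-fold for FLNA and 1.26-fold for ACTN1. Reads of TPM1, a densely read member too, ranged 1.56-fold, wider than the totals. Those of the sparsely read MYL9 and ACTN2 ranged 1.55-fold and 7.10-fold. Since the size factors also ranged 1.56-fold, near-constant reads become normalized counts that are higher the shallower the library.

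The same held inside groups, where both libraries carry the same construct. ACTB, ACTG1, ACTN1, ACTN4 and TPM4 had a higher normalized count in the shallower library b than in library a in all 4 groups. The order of ACTB over the 8 libraries was the exact reverse of the order of their depth. In vector, library b held 11321294 reads against 12015394 in library a, while ACTB had 3118 reads in b against 3098 in a. Between construct groups of nearly the same depth, SLNCR1 library b and delta-conserved library a had 3042 and 2995 ACTB reads, and 33 and 48 of ACTN2.

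**Figure D3:**
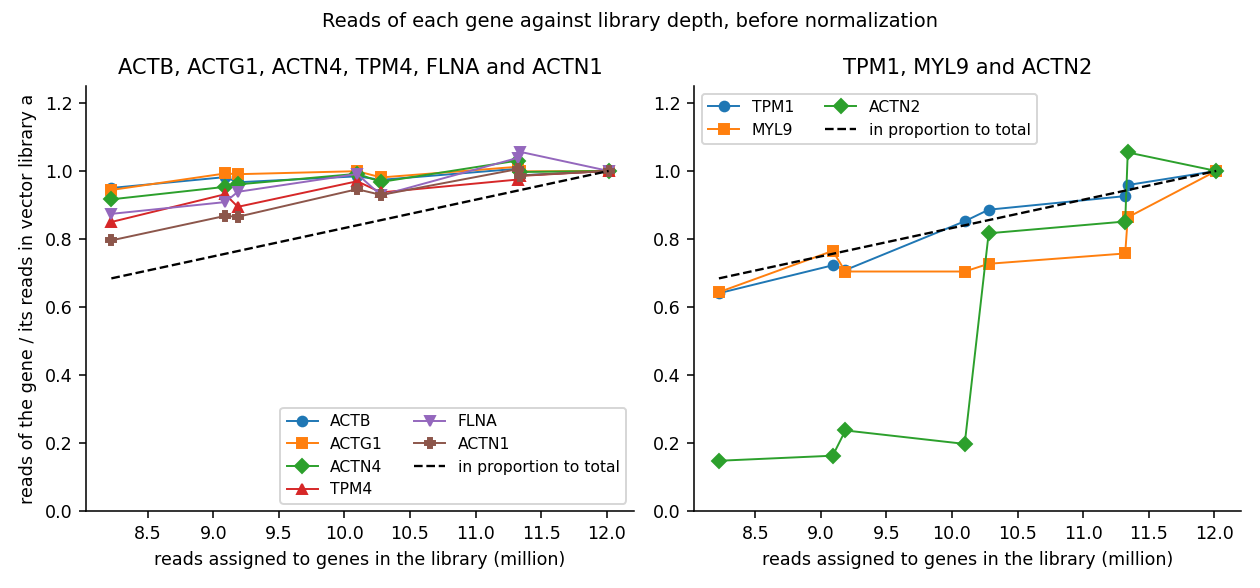
Reads of each gene, as a ratio to its reads in vector library a, against the reads assigned to genes in the library; the broken line is proportion to the total, and lines join the 8 libraries in order of depth. ACTB, ACTG1, ACTN4, TPM4, FLNA and ACTN1 stay above the broken line in the shallow libraries, TPM1 and MYL9 lie near or under it, and ACTN2 drops in the 4 SLNCR1 and delta-conserved libraries.

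Reads per base of transcript, averaged over the libraries, were 1.58 for ACTB, 1.43 for ACTG1, 1.33 for FLNA, 1.1 for ACTN4, 1.08 for TPM1, 1.04 for TPM4 and 0.945 for ACTN1, against 0.0361 for MYL9 and 0.0232 for ACTN2. Over 13810 genes with a length, 9 to 25 in a library had more than 2 reads per base. All genes with 1 to 2 reads per base, 339 in number and 6 members among them, had median log2 differences from vector of 0.10 with the conserved region, 0.23 with SLNCR1 and 0.28 with delta-conserved. The 4005 genes under 0.05 reads per base, with ACTN2 and MYL9 among them, had medians of -0.039, -0.13 and -0.096 in that order. Beside the medians of 0.23 and 0.28, ACTB, ACTG1, ACTN4, TPM4 and FLNA had 0.21 to 0.30 with SLNCR1 and 0.30 to 0.43 with delta-conserved, and TPM1 had 0.019 and -0.031. ACTN2, at -2.02 and -1.79, lay far under the median of its own class.

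Within groups, reads of the 339 dense genes in library b against a had a median log2 ratio of -0.00081 in vector, -0.070 with the conserved region, -0.026 with SLNCR1 and -0.10 with delta-conserved. The totals differed by -0.086, -0.14, -0.15 and -0.16 in that order. A construct effect on the dense members and an effect of depth cannot be told apart in these groups, because SLNCR1 and delta-conserved are the shallower groups.

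When each library's trend with reads per base was taken out, a setting chosen after seeing the data, the differences of the dense members other than TPM1 shrank. ACTB went from 0.28 to 0.048 with SLNCR1 and from 0.42 to 0.12 with delta-conserved, ACTG1 from 0.30 to 0.073 and from 0.43 to 0.14, and ACTN4 from 0.25 to 0.049 and from 0.37 to 0.13. TPM4 came to 0.062 and 0.073, FLNA to -0.0090 and 0.042, and ACTN1 to -0.019 and -0.0039. ACTN2 stayed at -1.91 with SLNCR1 and -1.69 with delta-conserved. TPM1 came to -0.18 and -0.27, and MYL9 to 0.17 and 0.20. The SE in this fit was 0.04 to 0.049 for ACTB, ACTG1, ACTN4, TPM4, FLNA and ACTN1. It was 0.066 for TPM1, 0.15 for MYL9 and 0.17 for ACTN2. With SLNCR1 and with delta-conserved, ACTB, ACTG1, ACTN4, TPM4 and MYL9 lay above 0 by more than their SE. TPM1 and ACTN2 lay under 0 by more than theirs, and FLNA and ACTN1 lay within theirs. The values of TPM1 rest on the length of 1 of its many transcripts.

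Among themselves, the log2 levels of ACTB, ACTG1, ACTN1, ACTN4, TPM4 and FLNA had Pearson correlations of 0.934 to 0.997 over the 8 libraries, which share their depth and so part of these values. ACTN2 ran against ACTB at -0.835, and TPM1 against ACTB at -0.312. The gene most like each member in log2 level over the 8 libraries, out of 11209 with a mean of at least 100 normalized counts, was EEF2 for ACTB (r = 0.9992), HMGA1 for ACTG1 (0.9987), FKBP1A for TPM4 (0.9986), TPTE for ACTN2 (0.9979), CS for ACTN1 (0.9974), CFL1 for ACTN4 (0.9965), PLEC for FLNA (0.9836), LINC00998 for MYL9 (0.9591) and OSBPL3 for TPM1 (0.9274). With ACTB, 993 genes had an r above 0.9, with ACTN2 there were 592 and with TPM1 there were 3. TPTE had 188 and 193 normalized counts in vector, 199 and 193 with the conserved region, 122 and 115 with SLNCR1, and 131 and 119 with delta-conserved. That is the same split of groups as ACTN2 with a smaller difference, and follows from picking TPTE for its likeness to ACTN2.

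Other genes of the actin system were taken from 7 lists of 111 genes without the members, of which 105 were tested. With SLNCR1, 22 were called higher and 2 lower than in vector by limma with adjustment over all 16073 genes, which is 22.9% of the list beside 11.3% of all genes, and the median log2 difference was 0.13 beside -0.00041. With delta-conserved 26 were higher and 3 lower, 27.6% beside 10.4%, with a median of 0.16 beside -0.0028. With the conserved region 0 were called beside 0.00622%, with 9 at an unadjusted p under 0.05, 0 in the authors' deposited table and a median of 0.085 beside 0.020. With the trend in reads per base taken out, the counts were 1 higher and 1 lower of 103 with SLNCR1, and 4 higher and 0 lower with delta-conserved. The shares of all genes called in that fit and in the fits without a library are not given here. A change of the lists alone therefore cannot be read from these counts. By the authors' deposited adjusted p-values, MYLK was the listed gene called with SLNCR1 (0.882% of all genes), and 14 were called with delta-conserved (2.26%). The count with SLNCR1 came to 2 without SLNCR1 library b, 1 without vector library a and 50 without SLNCR1 library a, and that with delta-conserved to 0 without vector library a or without delta-conserved library b and to 15 without delta-conserved library a.

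The share called differed between the lists, beside 11.3% of all genes called with SLNCR1 and 10.4% with delta-conserved. It was 40.0% with each construct for monomer binding and turnover, and 5.0% and 10.0% for focal adhesion. With the trend in reads per base taken out, 0 of 20 monomer binding and turnover genes were called with SLNCR1 and 1 of 20 with delta-conserved. Of the focal adhesion genes 0 of 20 were called with each. Whether the lists differ beyond their read density was not tested. Among proteins that bind actin monomers or turn filaments over, 8 of 20 were higher with SLNCR1 and 8 of 20 with delta-conserved, and none was lower. Of the nucleators, the Arp2/3 complex and formins, 4 of 19 were higher with SLNCR1, and 6 were higher and 1 lower with delta-conserved. Of the cross-linking and side-binding proteins 5 of 20 were higher with each construct, and of the focal adhesion genes 1 of 20 and 2 of 20 were higher. SRF itself was not called. It had 1277 ± 88.4 normalized counts in vector, 1321 ± 0.618 with the conserved region, 1311 ± 52.3 with SLNCR1 and 1278 ± 13.0 with delta-conserved. Of the 8 genes of its list, 1 was higher with SLNCR1 (ANKRD1). With delta-conserved 1 was higher (ANKRD1) and 1 lower (MKL1).

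**Figure D4:**
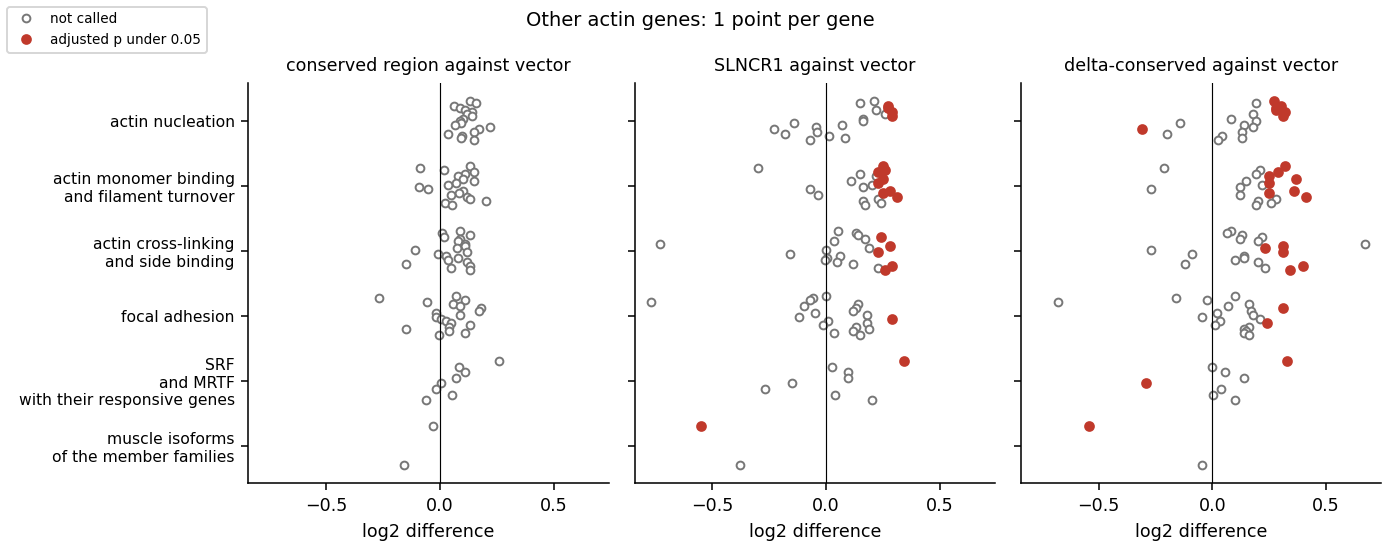
Log2 differences of 89 of the tested actin genes that are not members, 1 point per gene, in 6 lists and by construct against vector; filled points have an adjusted p under 0.05 by limma over 16073 genes. No point is filled with the conserved region, and 20 and 25 are filled with SLNCR1 and delta-conserved, 19 and 22 of them to the right of 0.

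With delta-conserved the 4 largest higher calls were of densely read genes. TMSB10, a thymosin that holds actin monomers, went from 597 ± 39.7 normalized counts in vector to 743 ± 52.9 with SLNCR1 and 795 ± 50.2 with delta-conserved (SD, n = 2), a log2 difference of 0.31 ± 0.083 (SE, limma adjusted p = 0.0251) and 0.41 ± 0.083 (adjusted p = 0.00505). It has 1.39 reads per base, and with the trend taken out its differences were 0.090 and 0.13 (adjusted p = 0.363 and 0.198). With delta-conserved, TAGLN2 (transgelin-2, 0.40 ± 0.073), CFL1 (cofilin, which severs filaments, 0.37 ± 0.078) and PFN1 (profilin, which feeds monomers to growing ends, 0.36 ± 0.072) were the next, at limma adjusted p-values of 0.00288 to 0.00725, and lost the call in the same way. ARPC5, a subunit of the Arp2/3 complex with 0.235 reads per base, went from 1488 ± 32.1 to 1826 ± 131 with SLNCR1, by 0.29 ± 0.070 (limma adjusted p = 0.0142, and 0.0147 with the trend taken out). Its call, like those of the other genes named in this paragraph, was lost without 1 of the libraries. ANKRD1, a target of the MRTF and YAP coactivators, went from 449 ± 1.2 to 567 ± 8.66 with SLNCR1, by 0.34 ± 0.095 (limma adjusted p = 0.0315), the largest higher call with that construct. It has 0.267 reads per base, and with the trend taken out its difference was 0.31 (adjusted p = 0.0778). PDLIM7, an adhesion protein, went up by 0.29 ± 0.072 (limma adjusted p = 0.0173) and had 0.11 with the trend taken out (adjusted p = 0.164).

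Of the lower calls, ACTA2, MYLK and DIAPH3 have 0.101, 0.0751 and 0.0891 reads per base, and MKL1 was not matched to a length. ACTA2, the actin of smooth muscle, had 158 ± 13.3 normalized counts in vector, 154 ± 6.06 with the conserved region, 107 ± 7.73 with SLNCR1 and 109 ± 20.4 with delta-conserved, the same split of groups as ACTN2. Its log2 difference from vector was -0.55 ± 0.15 (SE, limma adjusted p = 0.0275) with SLNCR1 and -0.54 ± 0.15 (adjusted p = 0.0287) with delta-conserved. With the trend taken out the differences were nearly as large, -0.48 and -0.47 (adjusted p = 0.0858 and 0.0976), and without 1 library the adjusted p reached 0.124 and 0.332. MYLK, the kinase that phosphorylates the regulatory light chains, fell from 838 ± 11.1 to 610 ± 61.5 with SLNCR1, a log2 difference of -0.46 ± 0.083 (SE, limma adjusted p = 0.00202, 0.0121 with the trend taken out, at most 0.0477 without 1 library), and it was the listed gene called in the authors' deposited table. With delta-conserved MYLK differed by -0.24 ± 0.083 (adjusted p = 0.0797). The formin DIAPH3 fell by a log2 of 0.31 ± 0.086 with delta-conserved (limma adjusted p = 0.0280), from 442 ± 10.6 to 356 ± 16.0, and MKL1, the gene of the coactivator MRTF-A, by 0.29 ± 0.085 (limma adjusted p = 0.0355); both calls were lost without 1 library, at adjusted p-values of up to 0.2 and 0.291. The other actins and alpha-actinin of muscle, ACTA1, ACTC1, ACTG2 and ACTN3, had at most 10, 5, 7 and 5 reads in a library and were not tested.

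Between constructs, 6 listed genes were higher and 5 lower with SLNCR1 than with the conserved region by limma, 10.5% beside 11.5% of all genes. The focal adhesion gene TLN2 was higher by 0.34 ± 0.098 (adjusted p = 0.0328), PDLIM7 by 0.29 ± 0.072 (0.0130) and the cofilin kinase LIMK1 by 0.26 ± 0.066 (0.0168). DIAPH3 was lower by a log2 of -0.40 ± 0.086 (adjusted p = 0.00485), MYLK by -0.37 ± 0.083 (0.00652), ACTA2 by -0.52 ± 0.15 (0.0294) and ROCK1, a kinase that drives myosin contraction, by -0.37 ± 0.098 (0.0202). ROCK1 had 1028 and 766 normalized counts in the SLNCR1 libraries. Its call, like that of each other gene named in this paragraph, was lost without 1 of the libraries. The count of 11 came to 5 without SLNCR1 library b, 34 without SLNCR1 library a, 0 without conserved-region library a and 3 without conserved-region library b.

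With the conserved region against delta-conserved, 3 listed genes were higher and 4 lower by limma, 6.67% beside 6.89% of all genes. DIAPH3 was higher by 0.49 ± 0.086 (adjusted p = 0.00149, and 0.00533 with the trend taken out), ACTA2 by 0.51 ± 0.15 (0.0481) and MKL1 by 0.30 ± 0.085 (0.0438). TMSB10, CFL1, TAGLN2 and PFN1 were lower by a log2 of -0.29 to -0.26 (adjusted p = 0.0349 to 0.0478), and each lost the call with the trend taken out. Leaving out a library brought the count of 7 to between 0 and 2. SLNCR1 against delta-conserved had 0 listed genes called by limma, with 10 at an unadjusted p under 0.05 and 0.0% of all genes called. The difference of MYLK there was -0.22 ± 0.083 (adjusted p = 0.536), so its call with SLNCR1 and not with delta-conserved does not show that the constructs differ in it.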

How the data were processed

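RNA selected for poly(A) was sequenced from 8 A375 libraries with a kit that does not mark strand, per the labels' protocols. The submitters' processing notes name STAR, featureCounts, DESeq and build hg19. Their versions and settings, the annotation and any duplicate removal: not given in the sources used here. Each of the 3 deposited tables holds, per the file headers, a signal that is the authors' group mean of scaled reads, a fold that is the ratio of 2 means, and the authors' p-values.

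Whole reads of each library were solved from the means. In 3 groups 100% of genes with reads had 1 solution; for the conserved region the share was 99.981%, and 6 genes, FLNA among them, had several. On simulated means, 100% of the single solutions were correct. Reads were scaled by median-of-ratios size factors over 8 libraries. limma 3.58.1 in R 4.3.3 was fitted to log2(normalized count + 1) with a variance trend and 4 groups, for the 16073 genes whose mean reached 10. Adjustment was by Benjamini-Hochberg, with a threshold of 0.05. Low genes are understated on that scale. On simulated reads over 16073 genes, 62.7% of genes changed 1.5-fold and 94% changed 2-fold were recovered for SLNCR1 against vector (8 false calls among 176), 64.2% and 73.1% for the conserved region (10 among 167), and 76.1% and 76.1% for delta-conserved (9 among 177). The simulated reads were drawn in proportion to the size factors, with the same fixed dispersion for all genes. They held no trend with reads per base and no outlying library, so their false calls do not measure those in the real data. Reads per base used the GENCODE release 29 principal transcript, found for 85.7% of the genes tested.

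The members and the gene lists were chosen with earlier results of these data known. The genes named are the 9 members, SRF, MKL1, ACTN3 and the muscle actins, the gene most like each member, and, per comparison and direction, up to 4 called genes of the actin lists with the largest difference and at least 50 normalized counts in the higher group. COL3A1 and other single markers, and MYLK outside its calls, were named after their values were seen. Other scalings, filters, pseudocounts, thresholds and left-out libraries were tried. The separate counts of 1 of the 7 lists are not reported here.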

Additional observations from a re-analysis of the deposited data

How the results depend on the processing

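The shares of all genes called are not given beside the counts that follow. The counts of other actin genes called depended on the setting. Without the filter on low genes, they were 1 with SLNCR1 against vector (24 as reported), 10 with delta-conserved against vector (29), 2 with SLNCR1 against the conserved region (11) and 1 with the conserved region against delta-conserved (7). With the trend in reads per base taken out, a setting chosen after seeing the data, they were 2, 4, 7 and 1. At an adjusted p under 0.01 they were 1, 9, 3 and 1. In the authors' deposited tables they were 1 and 14 against vector. Leaving out 1 library gave 1 to 50, 0 to 28, 0 to 34 and 0 to 2, and 0 to 9 for SLNCR1 against delta-conserved, where 0 was reported. Scaling by library totals gave 11 in the comparison of the conserved region with delta-conserved, and 18 higher and 6 lower with delta-conserved against vector in place of 26 and 3. Dropping the filter tests more genes, and leaving out a library leaves fewer samples. What caused the changes in the counts was not tested. The count with the conserved region against vector was 0 under all settings run. No paired analysis was possible because the solved libraries carry no replicate number.

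Of 459 alternative values of the member differences, 30 moved by more than the spread and 21 changed sign, 10 of them of MYL9, 4 of ACTN1, 3 of TPM1, 2 of FLNA and 1 each of TPM4 and ACTN2. The sign change of ACTN2 was in SLNCR1 against delta-conserved without delta-conserved library a (0.012). Of 250 alternatives for the named actin genes, 111 lost the call and 0 changed direction. With 2 libraries a group, 1.5-fold and 2-fold differences were recovered in part on simulated reads, and a gene such as ACTN2 rests on 30 to 48 reads per library in the low groups.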
